A study of Homo sapiens with 4 samples.

Results

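The genes of oxidative phosphorylation were described in H1 human embryonic stem cells (an established line) that had undergone 8 days of hematopoietic differentiation, in the presence or absence of SB431542, an inhibitor of the TGFβ type I receptors. Members were taken by symbol from the FPKM table: the NDUF subunits of complex I, the SDH subunits of complex II, symbols that begin with UQCR (complex III), COX4 to COX8 (complex IV) and ATP5 (complex V), and the protein genes of mitochondrial DNA, with symbols ending in P or in P and digits dropped as pseudogenes. The patterns matched 246 rows, of which 142 were dropped by their ending and 1 as a second row of SDHD. MT-ATP6 and MT-ATP8 end in the same way but are no pseudogenes and were kept. This left 103 of the 58365 rows, 90 nuclear and 13 mitochondrial. Complexes were read from the symbols alone. NDUFA4 and NDUFA4L2 were thus counted with complex I, although NDUFA4 is known as a subunit of complex IV. By this reading, the nuclear members numbered 42, 4, 9, 17 and 18 for complexes I to V. The mitochondrial members numbered 7, 1, 3 and 2 for complexes I, III, IV and V. Not all are subunits: NDUFA6-AS1, NDUFB2-AS1 and NDUFV2-AS1 are antisense or divergent transcripts, and NDUFC2-KCTD14 and ATP5J2-PTCD1 are readthrough transcripts, which leaves 85 nuclear subunits or close relatives.

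There were 4 libraries, 2 of cells that received DMSO and 2 of cells that received SB431542 (SB) over the last 3 days, and each group held a replicate 1 and a replicate 2. All cells had the same earlier culture, 2 days with activin A and BMP4 and then 3 days with VEGF and bFGF, with VEGF and bFGF kept to the end. The study describes the sequenced cells as CD31+, a selection that the sample labels do not state, and it speaks of independent experiments for its analyses in general. How the sequenced replicates relate to these, and what the numbers share, is not stated in the sources used here, so p-values measure only the spread between these libraries.

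Oxidative phosphorylation couples electron transport to ATP synthesis in the inner mitochondrial membrane. Complexes I and II pass electrons to ubiquinone, complex III passes them to cytochrome c, complex IV passes them to oxygen, and complex V uses the resulting proton gradient to make ATP. Complex II is encoded wholly by nuclear genes, while the other complexes combine nuclear subunits with core subunits that mitochondrial DNA encodes. Mitochondrial DNA is transcribed from both strands as long polycistronic RNAs that are cut, mostly at the tRNAs, into shorter RNAs. Genes that overlap, such as MT-ATP8 and MT-ATP6, are not parted by a tRNA.

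The depth recovered from the smallest steps of the FPKM values was 24215319 and 23513817 fragments in DMSO replicates 1 and 2 and 19683658 and 25991989 fragments in SB replicates 1 and 2. The mean fragment measured 272.8, 288.6, 286.7 and 285.3 nt in that order. The 2 numbers differed in their composition: RN7SL1 and RN7SL2, RNAs of the signal recognition particle, held 4.45% (DMSO) and 3.96% (SB) of the summed FPKM for replicate 1 and 1.4% and 1.54% for replicate 2. PECAM1, which encodes CD31, was present in every library, at 197 and 163 FPKM with DMSO and at 182 and 153 FPKM with SB.

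The mitochondrial members were the most abundant by FPKM. Their mean FPKM ranged from 36.5 for MT-ND5 to 9442 for MT-ATP8, with a median of 3578, while that of the nuclear members ranged from 0 to 719.6 with a median of 80.2. Within 1 polycistronic transcript unit the levels spread widely. MT-CO1, which encodes the catalytic subunit of complex IV, was at 7946 and 8283 FPKM with DMSO and at 7713 and 7669.8 FPKM with SB. MT-CO2, the subunit that takes electrons from cytochrome c, was at 5269.6 and 8071 FPKM with DMSO and at 6592 and 8761 FPKM with SB. MT-ND5, MT-ND6 and MT-CYB, the last protein genes along the molecule, stood far below the others: MT-ND5 had 35.2 to 37.6 FPKM, MT-ND6 had 78.7 to 103 FPKM and MT-CYB, the cytochrome b of complex III, had 92.3 to 123 FPKM. The next lowest mitochondrial member, MT-ND4, had at least 913 FPKM in every library. MT-ND6 is the sole protein gene read from the other strand, and the use of strand in counting is not stated.

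**Figure D1:**
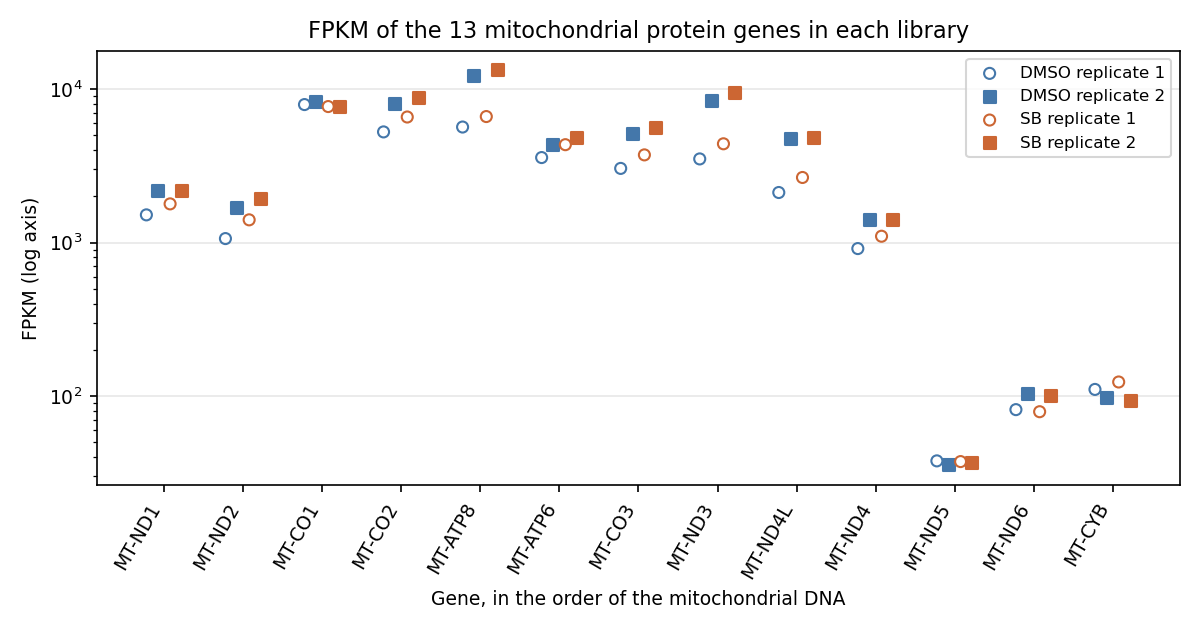
FPKM (log axis) of the 13 mitochondrial protein genes in their order along mitochondrial DNA; circles stand for replicate 1 and squares for replicate 2, blue for DMSO and orange for SB. MT-ND5, MT-ND6 and MT-CYB lie at or below 123 FPKM and the other 10 genes at or above 913, and the squares lie above the circles for most genes but not for MT-CO1, MT-ND5 or MT-CYB.

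FPKM divides by an effective length, which becomes very small for genes shorter than a fragment. MT-ATP8, with 207 nt the shortest protein gene of mitochondrial DNA, had an effective length of only 2.7 to 3.24 nt. It is shown whole because its high FPKM rests on this length and because it shares its end with the next gene; the 46 bases in capitals also belong to MT-ATP6, so that fragments from them cannot be told apart by position. The sequence is that of the GENCODE transcript on GRCh38, chrM:8366-8572, plus strand.
MT-ATP8: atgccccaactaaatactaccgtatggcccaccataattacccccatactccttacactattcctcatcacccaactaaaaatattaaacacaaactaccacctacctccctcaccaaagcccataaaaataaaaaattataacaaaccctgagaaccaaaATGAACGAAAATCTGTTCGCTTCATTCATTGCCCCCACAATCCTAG
MT-ND4L (297 nt) overlaps MT-ND4 by 7 bases in the same way; its last 30 bases, chrM:10737-10766, end with the shared bases in capitals.
MT-ND4L: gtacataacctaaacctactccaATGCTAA

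MT-ATP8 made up 16.3% to 22.1% of the mitochondrial FPKM of a library but, once its values were turned back into fragments with the recovered effective length, only 0.0899% to 0.174% of the mitochondrial fragments. MT-CO1 made up 12.8% to 22.8% of the mitochondrial FPKM and 41.4% to 54% of the mitochondrial fragments. The order of the mitochondrial genes therefore depended on the scale: MT-ATP8 was the highest by FPKM, followed by MT-CO1 and MT-CO2, whereas MT-CO1 led by fragments with a mean of 9955 fragments per 1000000 fragments of the library (FPM), followed by MT-CO2 with 2877 FPM. Near-identical nuclear copies add uncertainty to these genes. The copies on chromosome 1 matched their mitochondrial genes at 96.8% to 98.6% of bases, and the highest of them was MTATP6P1, at 128, 154, 142 and 191 FPKM in DMSO replicates 1 and 2 and SB replicates 1 and 2, against 3584, 4357, 4349 and 4843 FPKM for MT-ATP6. MTATP8P1, which differs from MT-ATP8 at 5 of 207 bases, was listed at 0, 15, 133 and 12.7 FPKM.

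Among the nuclear members the most abundant were small subunits. COX7C of complex IV led with 663 and 707 FPKM with DMSO and 749 and 759 FPKM with SB. ATP5J2 (current symbol ATP5MF), a membrane subunit of complex V, followed with 645 and 546 FPKM with DMSO and 863 and 689.7 FPKM with SB. All 4 subunits of complex II were lower, with means from 27.5 to 78.5 FPKM. Several subunits have isoforms used in particular tissues or conditions, and 7 pairs of a common and a restricted form were examined. COX4I2, the isoform known from lung and low oxygen, COX6A2, the muscle isoform, COX7B2 and COX8C were listed at 0 in all 4 libraries. COX6B2, a testis isoform, had at most 0.191 FPKM, COX7A1, a muscle isoform, at most 0.661 FPKM, and NDUFA4L2, known to be induced by low oxygen, at most 0.721 FPKM. Their counterparts were all expressed: COX4I1 at 349 to 419.8 FPKM, COX6A1 at 297 to 367 FPKM, COX6B1 at 198 to 244 FPKM, COX7A2 at 164 to 219 FPKM, COX7B at 13 to 24.7 FPKM, COX8A at 196 to 376 FPKM and NDUFA4 at 48 to 61.7 FPKM. A listed 0 in an FPKM table can be a failed estimate, and SLC25A6, an ADP/ATP carrier used by most cells, was also listed at 0 in all 4 libraries. No fold was therefore computed for these pairs, and the 4 isoforms listed at 0 are not called absent.

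To see whether TGFβ receptor inhibition moved respiratory genes, SB and DMSO libraries were compared with limma on log2(FPKM + 1), a scale that understates changes of low genes, over the 14909 rows with a mean of at least 1 FPKM in either group. Of the 103 members, 93 could be tested, 80 nuclear and all 13 mitochondrial. No member passed an adjusted p (Benjamini-Hochberg over all rows) of 0.05, where 0.134% of all rows did, and the smallest adjusted p of a member was 0.436. At an unadjusted p under 0.05, 1 member was found, against 9.96% of all rows. The differences were small and mostly in 1 direction: 74 of the 80 nuclear members were higher on average with SB, with a median log2 fold change of 0.20, where the median of all rows was 0.04 and 56.2% of them were higher. In 68 of the 80, SB was higher within both replicate numbers, as in 40.9% of all rows. In 35 nuclear members and in no mitochondrial member, both SB libraries lay above both DMSO libraries, as in 21.5% of all rows.

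The direction was shared by the 5 complexes. The median log2 fold change was 0.17 for the 39 tested nuclear members of complex I, 0.16 for the 4 of complex II, 0.17 for the 9 of complex III, 0.22 for the 11 of complex IV and 0.22 for the 17 of complex V. Within replicate 1 the median of the nuclear members was 0.21 and within replicate 2 it was 0.20. Across the 80 nuclear members, which share these libraries and are not independent, the difference within replicate 1 and that within replicate 2 correlated with Pearson's r of 0.59 and Spearman's rho of 0.56. The readthrough NDUFC2-KCTD14 had the lowest value, -0.49, on levels of 0.348 and 2.33 FPKM with DMSO and 0.214 and 0.869 FPKM with SB.

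**Figure D2:**
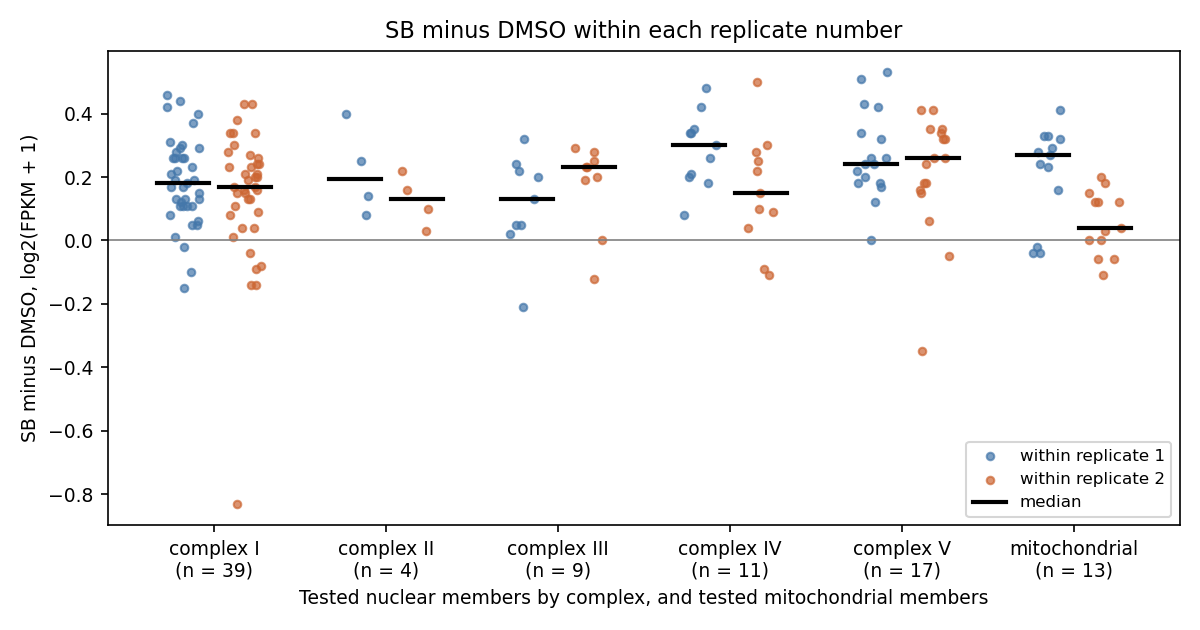
SB minus DMSO on the log2(FPKM + 1) scale (vertical axis) within replicate 1 (blue) and within replicate 2 (orange) for each tested nuclear member by complex and for the tested mitochondrial members; each point is 1 gene and black bars are medians. The nuclear medians lie above 0 in every complex and in both numbers, while the mitochondrial median is 0.27 within replicate 1 and 0.04 within replicate 2.

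In complex V, ATP5G1 and ATP5B had the largest differences. ATP5G1 (ATP5MC1, GRCh38 chromosome 17, 48892765 to 48895871), which encodes the c subunit of the ring, was at 102 and 100.4 FPKM with DMSO and at 147 and 134 FPKM with SB. Both SB libraries were above both DMSO libraries, and the log2 fold change was 0.47 (SE 0.16, unadjusted limma p 0.0311, adjusted p 0.436). ATP5B (ATP5F1B, chromosome 12, 56638175 to 56646068), the catalytic beta subunit, was at 255 and 320.0 FPKM with DMSO and at 365 and 425 FPKM with SB. Its groups did not overlap either, with a log2 fold change of 0.46 (limma SE 0.19, adjusted p 0.547). ATP5C1 (ATP5F1C, chromosome 10, 7788129 to 7807815), the gamma subunit of the central stalk, was at 159 and 158 FPKM with DMSO and at 216 and 198 FPKM with SB, and the log2 fold change was 0.38 (limma SE 0.15, adjusted p 0.529). ATP5J2 also separated the groups, with a log2 fold change of 0.38 (limma SE 0.19, adjusted p 0.659). Other genes of the same parts of the enzyme had smaller values, 0.16 for ATP5A1 (ATP5F1A, the alpha subunit, named after its values were seen) and 0.06 for ATP5G2, another gene for the c subunit. In all, 11 of the 17 tested nuclear members of complex V had both SB libraries above both DMSO libraries, as did 21.5% of all rows. The 17 include the readthrough ATP5J2-PTCD1, and the 11 include ATP5S (current symbol DMAC2L).

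In complex I, the accessory subunits NDUFA6 and NDUFA12 had the smallest p. NDUFA6 was at 38.1 and 37.4 FPKM with DMSO and at 51.3 and 47.5 FPKM with SB, a log2 fold change of 0.38 (limma SE 0.16, adjusted p 0.539). NDUFA12 was at 112 and 119.8 FPKM with DMSO and at 149 and 137 FPKM with SB, a log2 fold change of 0.30 (limma SE 0.16, adjusted p 0.673). In both the SB libraries were the higher pair, without overlap. The most abundant nuclear subunits of this complex did not separate the groups: NDUFS5 was at 475 and 365 FPKM with DMSO and at 502 and 368 FPKM with SB, and NDUFB1 was at 194 and 297 FPKM with DMSO and at 251 and 367 FPKM with SB, where the difference between numbers exceeded that between treatments. Their log2 fold changes were 0.05 for NDUFS5 and 0.34 for NDUFB1.

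In complex II, SDHA, the flavoprotein that oxidizes succinate, was at 39.9 and 39.6 FPKM with DMSO and at 42.1 and 40.4 FPKM with SB, a log2 fold change of 0.05 (SE 0.15). SDHB, the iron-sulfur subunit, was at 24.2 and 27.8 FPKM with DMSO and at 26.7 and 31.2 FPKM with SB. The membrane anchors SDHC and SDHD were at 62.2 and 85.8 and at 20.6 and 30.3 FPKM with DMSO and at 73.9 and 92 and at 27.6 and 35.5 FPKM with SB. The log2 fold changes of SDHB, SDHC and SDHD were 0.15, 0.17 and 0.31 (limma adjusted p 0.893, 0.91 and 0.808), and SDHA alone had both SB libraries above both DMSO libraries.

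In complex III, UQCRH, the hinge protein that contacts cytochrome c1, was at 291 and 350.3 FPKM with DMSO and at 364 and 412 FPKM with SB, a log2 fold change of 0.28 (limma SE 0.18, adjusted p 0.752). UQCRQ, a small subunit near cytochrome b, was at 114 and 102 FPKM with DMSO and at 133 and 124 FPKM with SB, a log2 fold change of 0.25 (limma SE 0.16, adjusted p 0.753). Both genes were without overlap between the groups. In complex IV, COX6A1 was at 298 and 297 FPKM with DMSO and at 342 and 367 FPKM with SB, a log2 fold change of 0.25 (limma SE 0.15, adjusted p 0.726). COX5A was at 109 and 150.2 FPKM with DMSO and at 139 and 213 FPKM with SB, a log2 fold change of 0.42 (limma SE 0.29, adjusted p 0.76), with overlap between the groups. COX7C and COX4I1 had log2 fold changes of 0.14 and 0.15. Among the 80 tested nuclear members, 2 had both SB libraries below both DMSO libraries, as did 2392 of all 14909 rows tested. They were NDUFC2 of complex I and UQCRB of complex III, named after their values were seen. NDUFC2 was at 282 and 292 FPKM with DMSO and at 262 and 265 FPKM with SB. UQCRB was at 127 and 119.6 FPKM with DMSO and at 109.7 and 110.3 FPKM with SB.

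For the mitochondrial members, the median log2 fold change with SB was 0.17, close to the nuclear one, but it was less even between the numbers, at 0.27 within replicate 1 and 0.04 within replicate 2. SB was higher within both numbers in 8 of the 13. The values ran from -0.08 for MT-CO1, whose SB libraries both lay below both DMSO libraries, to 0.30 for MT-ND2, which was at 1061 and 1669 FPKM with DMSO and at 1406 and 1911 FPKM with SB. MT-ND2 encodes a proton-pumping membrane subunit of complex I. The smallest adjusted p of a mitochondrial member was 0.8. The mitochondrial median fell below 0 when DMSO replicate 1 (-0.14) or SB replicate 2 (-0.04) was left out, and was 0.44 and 0.31 when DMSO replicate 2 or SB replicate 1 was left out. Each of these fits sets 1 library of one group against both numbers of the other.

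With the replicate number as a block in the same fit, 14 members passed an adjusted p of 0.05, all higher with SB, where 10.5% of all rows passed in either direction. Those not singled out above were named after their values were seen; the 14 were NDUFA6, NDUFB1, NDUFB2, NDUFB7, NDUFB8, NDUFB9, UQCRH, COX5A, ATP5B, ATP5C1, ATP5G1, ATP5G3, ATP5J2 and MT-ND3. The smallest limma adjusted p among them was 0.0172, for ATP5B. Whether the numbers pair the libraries is not known from the labels. A correction of the values for transcript GC content and length brought the nuclear median to 0.13 and the number with the block to 9. With the block and this correction, 738 of all 14909 rows passed as higher and 732 as lower.

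Cell type markers moved with the treatment in the same libraries. Of 11 tested hematopoietic markers 10 were higher with SB within both numbers, none passing an adjusted p of 0.05 with limma, and their summed level was 438 and 397 FPKM with DMSO and 774 and 704 FPKM with SB. Of 8 tested endoderm and liver markers all 8 were lower with SB within both numbers and 4 passed. The whole list summed to 337 and 338 FPKM with DMSO and 78.3 and 49.1 FPKM with SB. SOX17, named after its values were seen, was the largest part of the sum in SB replicate 1. It was at 53.3 and 17.5 FPKM with DMSO and at 49.3 and 17.3 FPKM with SB. The study describes SOX17 as a factor that keeps cells endothelial. The mesenchymal markers summed to 418 and 385 FPKM with DMSO and 206 and 212 FPKM with SB, the erythroid markers to 1632 and 2000.5 FPKM and to 1315 and 1649 FPKM, the endothelial markers to 2505 and 2081 FPKM and to 2469 and 2092 FPKM, the cardiac markers to 112 and 107 FPKM and to 104 and 118 FPKM, and the pluripotent markers to 114 and 128 FPKM and to 147 and 159.7 FPKM. Of the tested markers, those lower with SB within both numbers were 8 of 8 mesenchymal (median log2 fold change -0.91), 5 of 8 erythroid (-0.66), 6 of 10 endothelial (-0.09), 3 of 4 cardiac (-0.86) and 1 of 5 pluripotent (0.30). Named after their values were seen, MYL4, the largest part of the cardiac sum, was at 61.5 and 79.5 FPKM with DMSO and at 91.8 and 111 FPKM with SB, while NKX2-5 was at 45.3 and 21.9 FPKM with DMSO and at 10.4 and 5.23 FPKM with SB. No marker of these lists was at 0 in all libraries, but some were close to it. Also named after their values were seen, NANOG had at most 0.0261 FPKM, SOX2 at most 0.121 FPKM and POU5F1 at most 1.6 FPKM. LIN28A, DPPA4 and DNMT3B held most of the pluripotent sum. They were at 42.6, 26.7 and 42.3 FPKM in DMSO replicate 1 and at 65.2, 27 and 53.1 FPKM in SB replicate 1. The part of these cell types in the differences of the respiratory genes was not tested, and in bulk RNA fewer cells of a type and less RNA per cell cannot be told apart.

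By replicate number the members spread more widely, from -0.94 to 1.18 on the log2 scale against -0.49 to 0.47 by treatment, and nuclear and mitochondrial genes parted. With the replicate number as the only term in limma, no member passed an adjusted p of 0.05, where 0.309% of all rows did, and the smallest adjusted p was 0.0539, for MT-ATP8. At an unadjusted p under 0.05, 19 members were higher and 5 were lower in replicate 2, against 19.7% of all rows in either direction. Of the 13 mitochondrial members 9 were among the 19, and of the 80 nuclear members 10 were. The mitochondrial median of replicate 2 minus replicate 1 was 0.48, at 0.61 within DMSO and 0.35 within SB, and the nuclear median was 0.10, at 0.13 within DMSO and 0.07 within SB. Replicate 2 was higher in both treatments in 10 mitochondrial and 44 nuclear members, as in 42.2% of all rows, and lower in both in 2 mitochondrial and 25 nuclear members, as in 35.6% of all rows. Both libraries of replicate 2 lay above both of replicate 1 in 10 mitochondrial and 29 nuclear members, as in 28.7% of all rows, and below them in 2 mitochondrial and 11 nuclear members, as in 23.9% of all rows.

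**Figure D3:**
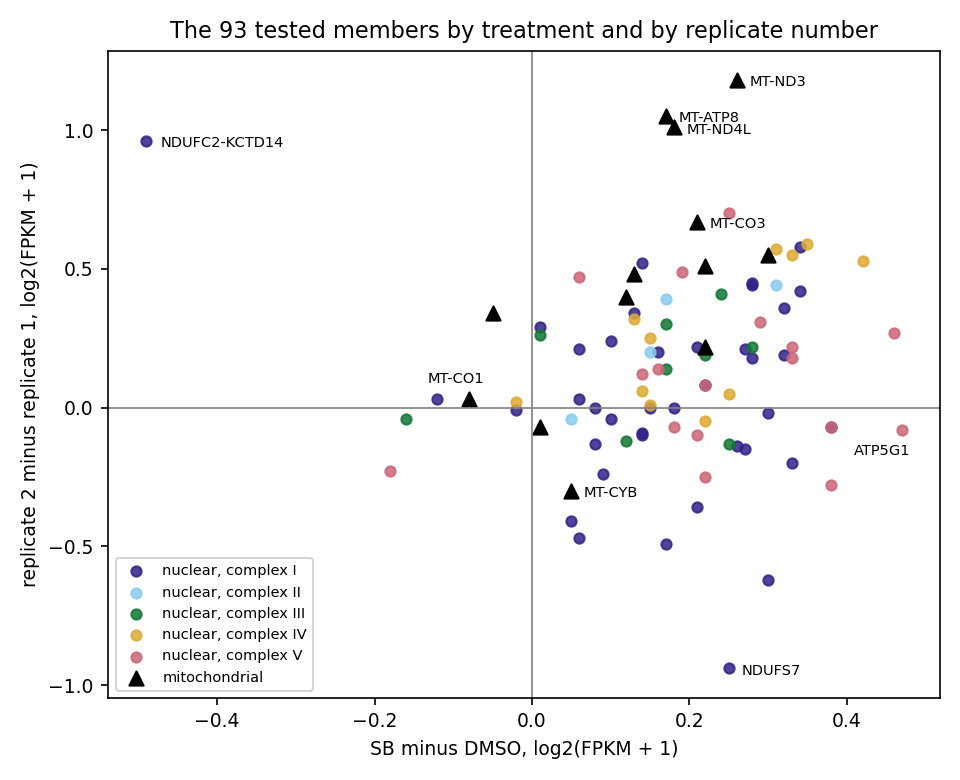
SB minus DMSO (horizontal axis) against replicate 2 minus replicate 1 (vertical axis), both on the log2(FPKM + 1) scale from limma, for the 93 tested members; circles are nuclear members coloured by complex and black triangles mitochondrial members. Nuclear members lie mostly to the right of 0 and on both sides of 0 vertically, and MT-ND3, MT-ATP8 and MT-ND4L stand highest, between 1.01 and 1.18.

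The 3 shortest mitochondrial genes showed the largest differences. MT-ND3 (chrM:10059-10404, 346 nt), a membrane subunit of complex I, was at 3511 and 4408 FPKM in the replicate 1 libraries of DMSO and SB and at 8343 and 9479.8 FPKM in those of replicate 2, a log2 difference of 1.18 (SE 0.14, limma adjusted p 0.0605). MT-ND4L, another membrane subunit of complex I, was at 2120.0 and 2657 FPKM in replicate 1 and at 4725 and 4811 FPKM in replicate 2, a log2 difference of 1.01 (SE 0.12, limma adjusted p 0.0662). MT-ATP8, a small membrane subunit of complex V, was at 5669.7 and 6637 FPKM in replicate 1 and at 12202 and 13259.5 FPKM in replicate 2, a log2 difference of 1.05 (SE 0.10). In all 3 genes the numbers were far apart and the treatments close. MT-ND3 rested on at least 5875 fragments in a library, MT-ND4L on at least 1675 and MT-ATP8 on at least 353.

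Of the 8 genes from 525 to 1378 nt, 7 differed less than these but in the same direction, with log2 differences of 0.67 for MT-CO3, 0.55 for MT-ND2, 0.51 for MT-CO2, 0.48 for MT-ND4, 0.40 for MT-ND1, 0.34 for MT-ND6 and 0.22 for MT-ATP6. In all 7, both libraries of replicate 2 lay above both of replicate 1. MT-CYB, whose 1141 nt lie between MT-ND2 (1042 nt) and MT-ND4 (1378 nt), was lower in replicate 2, at 110.0 and 123 FPKM in replicate 1 and at 96.5 and 92.3 FPKM in replicate 2, a log2 difference of -0.30 (SE 0.11, limma adjusted p 0.256). Of the longest 2 genes, MT-CO1 had a difference of 0.03 (SE 0.07, limma adjusted p 0.859), which turned to -0.18 with quantile normalization and to -0.13 with a correction for GC content and length. MT-ND5 had -0.07 (SE 0.11, limma adjusted p 0.769), which turned to between 0.02 and 0.05 with the 3 other scalings. Neighbours on the molecule could differ: MT-ATP6 and MT-CO3 lie end to end, and their ratios of replicate 2 over replicate 1 were 1.22 and 1.69 within DMSO and 1.11 and 1.5 within SB.

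Among the mitochondrial genes, the ratio between numbers went with gene length. Across the 13 mitochondrial genes, which come from the same 4 libraries, the log2 ratio of FPKM correlated with log2 length with Pearson's r of -0.80 and Spearman's rho of -0.70. In FPM, where the division by effective length was undone with the recovered lengths, the values were -0.78 and -0.71. This is no independent measure of the relation, since both scales rest on the same FPKM values, and the effective length of MT-ATP8 was read from 11 to 18 genes of like length. Elsewhere, replicate 2 minus replicate 1 showed little relation with log2 transcript length. Pearson's r was 0.04 and Spearman's rho 0.06 in the 80 tested nuclear members, and 0.01 and 0.04 over 14880 tested rows. The GC content of MT-ATP8, MT-ND4L and MT-ND3 was 39.6%, 43.1% and 40.2%, in a range that reached 47.7% in MT-ND1. MT-ND6 and MT-ND2, at 42.7% and 43%, also lay below MT-ND4L. Within DMSO, where the mean fragment was 272.8 nt in replicate 1 and 288.6 nt in replicate 2, the ratio of MT-ND3 was 2.38 by FPKM and 1.97 by FPM. Within SB, where the mean fragment was 286.7 and 285.3 nt, it was 2.15 by FPKM and 2.14 by FPM.

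**Figure D4:**
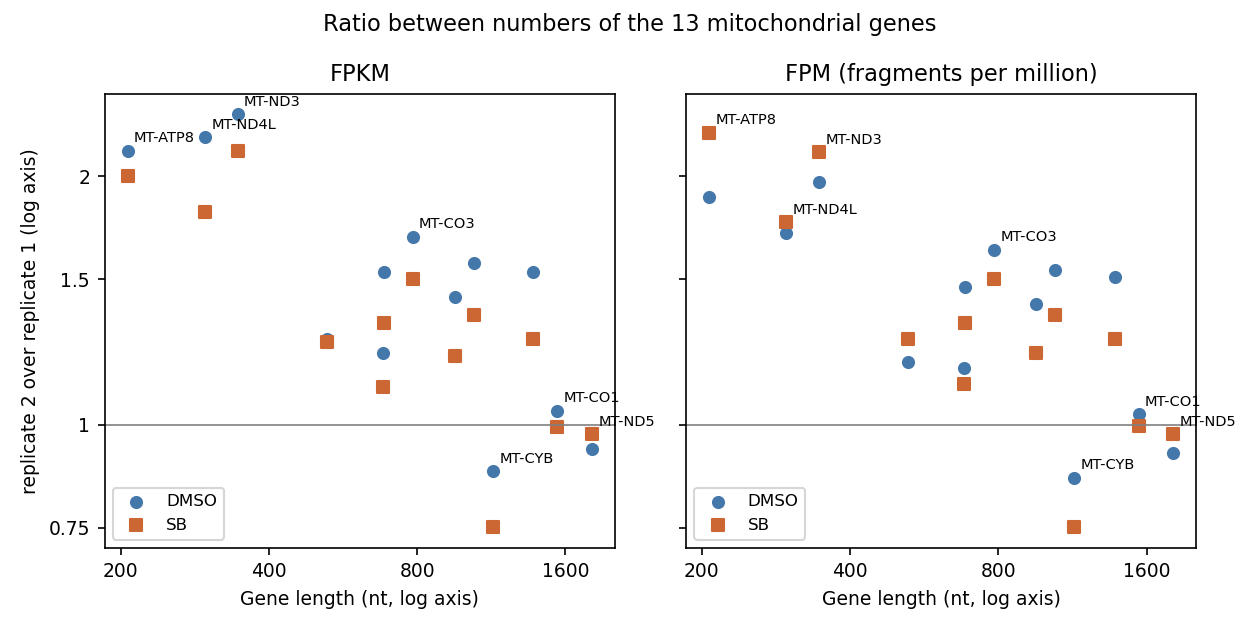
Ratio of replicate 2 over replicate 1 (vertical, log axis) against gene length in nt (horizontal, log axis) for the 13 mitochondrial genes, by FPKM (left) and by FPM (right); blue circles are DMSO and orange squares SB. On both scales MT-ATP8, MT-ND4L and MT-ND3 lie above 1.7, MT-CO1 and MT-ND5 lie close to 1 and MT-CYB lies below 1.

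The nuclear members split by number in both directions. Among those with the smallest p, NDUFS7 (chromosome 19, 1383527 to 1395589), an iron-sulfur subunit at the end of the electron path of complex I, was at 128 and 151 FPKM in the replicate 1 libraries of DMSO and SB and at 65.5 and 78.8 FPKM in those of replicate 2, a log2 difference of -0.94 (SE 0.15, limma adjusted p 0.0873). NDUFS5, a small accessory subunit, had a log2 difference of -0.41 (SE 0.09, limma adjusted p 0.127). ATP5F1 (ATP5PB), the peripheral stalk subunit of complex V, was at 75.8 and 89.9 FPKM in replicate 1 and at 123 and 148 FPKM in replicate 2, a log2 difference of 0.70 (SE 0.15, limma adjusted p 0.135). ATP5G2 (ATP5MC2), another gene for the c subunit, was at 264 and 297 FPKM in replicate 1 and at 396 and 382 FPKM in replicate 2, a log2 difference of 0.47 (SE 0.10, limma adjusted p 0.135). ATP5G1 and ATP5G3, which encode the same mature c subunit, were closer between the numbers, ATP5G1 at 102 and 147 FPKM in replicate 1 and at 100.4 and 134 FPKM in replicate 2, and ATP5G3, named after its values were seen, at 167 and 209 FPKM and at 187 and 238 FPKM.

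In complex IV, COX8A and COX7B, both small accessory subunits, had log2 differences of 0.59 (SE 0.19, limma adjusted p 0.221) and 0.57 (SE 0.19, limma adjusted p 0.22). Of the 11 tested nuclear members of this complex 7 were higher in replicate 2 in both treatments and none was lower in both. Of all rows, 42.2% were higher in both and 35.6% lower in both. In complex III, UQCRFS1, the Rieske iron-sulfur protein, had a log2 difference of 0.41 (SE 0.16, limma adjusted p 0.267) and UQCRC2, a core protein, had 0.30 (SE 0.13, limma adjusted p 0.299). In complex II the values were -0.04 for SDHA, 0.20 for SDHB, 0.39 for SDHC and 0.44 for SDHD. The 39 tested nuclear members of complex I were balanced, 18 higher and 15 lower in both treatments, with a median of 0.00, whereas the 7 mitochondrial members of the same complex had a median of 0.48.

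With the treatment as a second term, 39 members passed an adjusted p of 0.05, 31 higher and 8 lower in replicate 2, where 22.7% of all rows passed. These included 10 of the 13 mitochondrial members, all higher, and NDUFS7 had the smallest limma adjusted p among the nuclear ones, 0.00453. All 8 that passed as lower were nuclear, and are listed because of their values: NDUFS7, NDUFS6, NDUFA3, NDUFS5, NDUFA11, NDUFV1, ATP5D and ATP5J2.

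The nuclear differences between numbers went with GC content. Across the 80 tested nuclear members, replicate 2 minus replicate 1 correlated with the mean GC content of the annotated transcripts with Pearson's r of -0.33 and Spearman's rho of -0.33, and over all 14880 tested rows with a transcript the values were -0.54 and -0.65. The 40 nuclear members with a GC content at or below their median of 49% had a median difference of 0.20, and the 40 above it had -0.01. In all tested rows divided at the same GC content the medians were 0.23 and -0.17. The 13 mitochondrial members, with a median difference of 0.48, all lay on the low side, at 39.6% to 47.7% GC. SB minus DMSO showed no such relation with GC content in the nuclear members, with r of -0.04, and its medians were 0.17 and 0.21 in the same divisions. Over all tested rows with a transcript its r was -0.10 and its rho -0.12. Against log2 transcript length in the nuclear members, its r was -0.13 and its rho -0.23. The part of GC content in these differences was not tested.

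**Figure D5:**
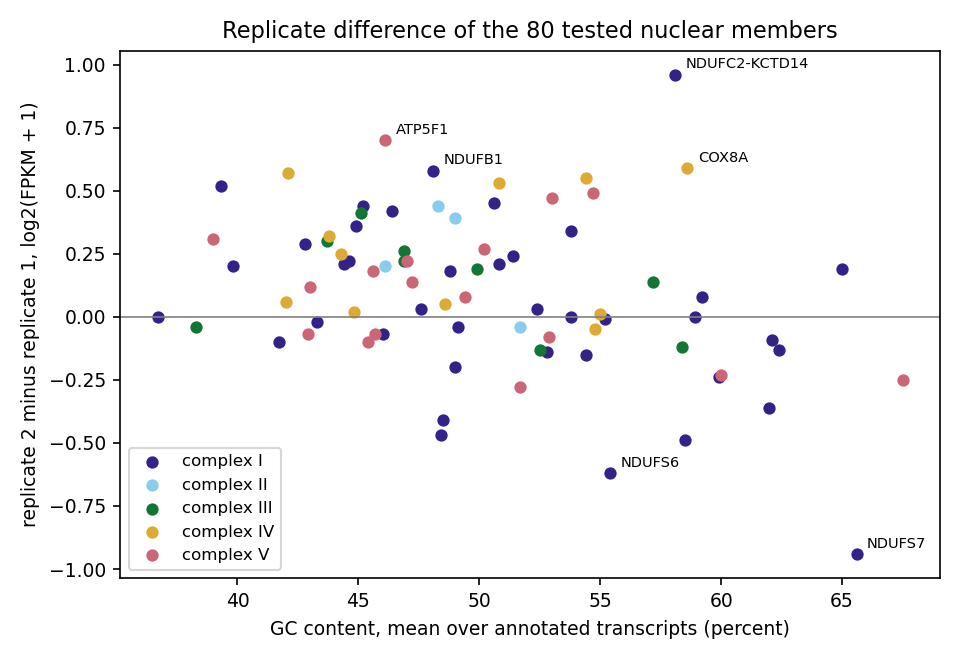
Replicate 2 minus replicate 1 on the log2(FPKM + 1) scale (vertical axis) against GC content in percent, the mean over annotated transcripts (horizontal axis), for the 80 tested nuclear members coloured by complex. NDUFS7, lowest at -0.94, lies at 65.6% GC, and ATP5F1 (0.70) lies at 46.1%.

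Taking both genomes as sums, the mitochondrial members held 77.7% and 84% of the members' FPKM in DMSO replicates 1 and 2 and 77.4% and 83.1% in SB replicates 1 and 2. The share thus lay 6.03 percentage points higher in replicate 2 on average and 0.58 percentage points lower with SB. The summed mitochondrial FPKM was 34862 and 56589 with DMSO and 40619 and 60124 with SB, while the summed nuclear FPKM was 10023 and 10739 with DMSO and 11838 and 12209.9 with SB. The nuclear sum therefore was higher in both SB libraries than in either DMSO library, and the mitochondrial sum was higher in both libraries of replicate 2 than in either of replicate 1. These sums are given as a description without a test. The smallest two-sided p that an exact permutation test of a single value allows for 2 libraries in each group is 0.333. By fragments the difference between numbers was smaller: mitochondrial protein genes took 1.87% and 2.3% of all fragments with DMSO and 1.99% and 2.33% with SB. Leaving out MT-CO1, they took 8611 and 12566 FPM with DMSO and 10253 and 13639 FPM with SB.

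Genes that assemble the complexes or express mitochondrial DNA were described from lists chosen with earlier results of these data known. With SB against DMSO none of their genes passed an adjusted p of 0.05 with limma. SB was higher within both numbers in 11 of 18 tested assembly factors of complex I (median log2 fold change 0.15), in 6 of 10 of complexes II and III (0.14), in 18 of 24 of complex IV (0.16) and in 1 of 4 of complex V (-0.02). The complex IV assembly factor with the smallest p was PET100, at 32.1 and 39.4 FPKM with DMSO and at 55.4 and 47.6 FPKM with SB (log2 fold change 0.52, limma adjusted p 0.481), and COX20, named after its values were seen, had a log2 fold change of 0.53 (limma adjusted p 0.501). Among electron carriers and subunits outside the symbol patterns, 7 of 9 were higher within both numbers (median 0.24), with CYCS, which encodes cytochrome c, at 52.3 and 50.9 FPKM with DMSO and at 76.5 and 68 FPKM with SB (log2 fold change 0.48, limma adjusted p 0.443). The mitochondrial ribosomal proteins, which serve to translate the 13 mitochondrial protein genes, were higher within both numbers in 56 of 78 (median 0.17). The same held for TCA cycle genes in 15 of 18 (0.17) and for outer membrane and import genes in 10 of 12 (0.19). Cytosolic ribosomal proteins, short and abundant transcripts without a role in respiration, had a median of 0.05, with 15 of 20 higher within both numbers.

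Factors that transcribe or regulate both genomes were also described by their counts. Of 28 tested genes of mitochondrial DNA expression 18 were higher and 6 were lower with SB within both numbers (median 0.20). TFAM, which packages and helps to transcribe mitochondrial DNA, was at 18.5 and 17.9 FPKM with DMSO and at 20.7 and 22.4 FPKM with SB (log2 fold change 0.23, limma adjusted p 0.76). LRPPRC, which stabilizes mitochondrial mRNAs, was at 21 and 24.9 FPKM with DMSO and at 26.3 and 33.3 FPKM with SB (log2 fold change 0.36, limma adjusted p 0.703). POLRMT, the mitochondrial RNA polymerase, differed by number rather than by treatment, at 67.2 and 50.3 FPKM in the replicate 1 libraries of DMSO and SB and at 30.3 and 27.4 FPKM in those of replicate 2, a log2 difference of -0.99 with a limma adjusted p of 0.105. It was thus lower in the libraries in which most mitochondrial mRNAs were higher, and a link between these was not tested. POLRMT did not stand for its list: of the 28 tested genes, 17 were higher and 7 lower in replicate 2 in both treatments (median 0.21). Of the 10 tested nuclear regulators 7 were higher with SB within both numbers (median 0.11). NRF1, a transcription factor of respiratory genes, was at 4.73 and 5.97 FPKM with DMSO and at 5.86 and 7.47 FPKM with SB, ESRRA, the estrogen-related receptor alpha, at 30.3 and 29.6 FPKM and at 31.4 and 34.1 FPKM, and the coactivator PPARGC1A at 1.33 and 1.2 FPKM and at 1.19 and 1.67 FPKM. Their log2 fold changes were 0.27, 0.12 and 0.09, with limma adjusted p of 0.791, 0.904 and 0.963.

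Because many nuclear members are known to carry NRF1 sites, the core GCGCATGC was searched on both strands in RefSeq promoters on GRCh38.p14, from 250 bases before to 50 bases after the start site. It was found in 13 of the 66 nuclear coding members with an entry (19.7%) and in 894 of all 27305 promoters (3.27%). The medians of SB minus DMSO were 0.25 for the 13 members with the core and 0.21 for the 49 tested members without it, and those of replicate 2 minus replicate 1 were 0.20 and 0.08. The promoters of 3 members with the core are shown because their genes stand apart by treatment (ATP5C1) or by number in opposite directions (ATP5G2 and NDUFS7); the core is in capitals and each window is written on the strand of its gene.
ATP5C1, chr10:7788137-7788176, plus strand: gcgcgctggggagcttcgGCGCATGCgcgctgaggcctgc
ATP5G2, chr12:53676098-53676141, minus strand: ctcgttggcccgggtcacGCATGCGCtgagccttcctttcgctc
NDUFS7, chr19:1383816-1383859, plus strand: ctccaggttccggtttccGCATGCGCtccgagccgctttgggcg
In ATP5G2 and NDUFS7 the core stands on the opposite strand, as GCATGCGC. A match of these letters is a description of the sequence and not of binding.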

How the data were processed

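RNA was sequenced from 4 libraries, and groups and replicate numbers came from the sample titles. The unit of the deposited table is FPKM, the number of fragments divided by effective transcript length and by library total, computed by the authors' service company. The submitters' processing notes name BWA, Bowtie, RSEM and hg19 without versions or roles, while 95.5% of the identifiers in the table occur with the same version in GENCODE release 29, 99.8% of these at the same GRCh38 position, so coordinates are given on GRCh38, counted from 1. Scaling between libraries and the use of strand are not stated in the sources used here.

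Depth, mean fragment length and effective lengths were recovered from the steps of low FPKM values of genes with 1 transcript, of which 93.6% to 95.4% lay within 0.4% of a step. Intervals of counting error were not computed. Values were compared as log2(FPKM + 1) with limma 3.58.1 in R 4.3.3 (empirical Bayes with a trend, two-sided, Benjamini-Hochberg over 14909 rows with a mean of at least 1 FPKM in 1 group), once with the treatment and once with the replicate number as the only term; the study names Student's t test for 2 groups. The procedure was tested on simulated data, but the outcome is not given here and no result rests on that outcome. Where GC content or length of a gene was used, it was the mean over its annotated transcripts.

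Members and lists were chosen with earlier results of these data known. Named were all mitochondrial and SDH genes, isoform pairs, and in each other complex the 2 nuclear members with the highest mean FPKM and the 2 with the smallest p in each comparison; from other lists, the rise or fall with the smallest p and 6 regulators. Alternatives were another pseudocount, other filters and scalings, a GC and length correction, no trend, the replicate block and the removal of each library. Sequences came from GENCODE and RefSeq; protein sequences were not used here. FASTKD4 of the lists was not matched.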

Additional observations from a re-analysis of the deposited data

How the results depend on the processing

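With SB against DMSO, no member was called under any alternative fit without a block. The count over all genes, 20 (4 higher, 16 lower), became 0 with no filter, 31 with quantile normalization (9 higher, 22 lower), 189 with the GC content and length correction (77 higher, 112 lower), 1564 with the replicate block (820 higher, 744 lower) and 1470 with the block and this correction, and ranged from 0 (without DMSO replicate 1) to 14 (without DMSO replicate 2) when 1 library was left out. Members called were 14 with the replicate block and 9 with the block and the correction. The nuclear median of 0.20 became 0.17 with no filter, 0.15 with quantile normalization, 0.16 with upper-quartile scaling and with scaling to rows outside mitochondrial DNA, and 0.13 with the correction, with or without the block; with 1 library left out it ranged from 0.13 to 0.24. The mitochondrial median ranged from -0.14 to 0.44 in this way, and was 0.10 in FPM and 0.13 without MT-ATP6 and MT-ATP8, both tried after seeing the data.

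Between replicate numbers, the count over all genes, 46 (12 higher, 34 lower), became 0 with no filter, 163 with at least 5 FPKM in at least 2 libraries (16 higher, 147 lower), 30 with upper-quartile scaling (12 higher, 18 lower), 10 with the correction, 11 with no trend, 3383 with treatment as a second term and 0 when any 1 library was left out. Members called became 3 with the stricter filter (MT-ATP8, MT-ND3 and MT-ND4L), 1 (MT-ATP8) with each other scaling and 39 with the second term. The nuclear median of 0.10 became 0.23 with quantile normalization, 0.19 with upper-quartile scaling, 0.21 with scaling to rows outside mitochondrial DNA and 0.04 with the correction, and ranged from 0.02 to 0.21 with 1 library left out. The mitochondrial median of 0.48 became 0.28 with the correction, and was 0.47 in FPM. The mean mitochondrial share of 80.6% became 75.4% without MT-ATP8 and MT-ND4L and 74.9% without MT-ATP6 and MT-ATP8, and lay 5.32 and 6.50 percentage points higher in replicate 2. The causes of these shifts were not tested.

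Single genes near 0 changed sign. For SB minus DMSO these were NDUFS5 and MT-ND5 (-0.03 each) and MT-ATP8 (-0.00) with quantile normalization, MT-ND5 (-0.03) with both other scalings, and NDUFS5 (-0.05), MT-CYB (-0.03) and MT-ND5 (-0.04) with the correction, with or without the block. For replicate 2 minus replicate 1 they were SDHA (0.09, 0.05 and 0.07) and MT-ND5 (0.05, 0.02 and 0.04) with quantile, upper-quartile and non-mitochondrial scaling, MT-CO1 (-0.18 with quantile normalization, -0.13 with the correction) and MT-ATP6 (-0.00 with the correction). With 1 library left out, SB minus DMSO ranged from -0.06 to 0.40 for SDHC, -0.18 to 0.27 for NDUFS5, -0.22 to 0.12 for MT-ND6, -0.09 to 0.53 for MT-CO2, -0.16 to 0.25 for MT-CYB, -0.03 to 0.63 for MT-ND2, -0.04 to 0.06 for MT-ND5, -0.37 to 0.88 for MT-ND3, -0.17 to 0.44 for MT-ND4, -0.14 to 0.38 for MT-ND1, -0.17 to 0.59 for MT-CO3, -0.40 to 0.75 for MT-ND4L and -0.38 to 0.73 for MT-ATP8; replicate 2 minus replicate 1 ranged from -0.07 to 0.00 for SDHA and from -0.03 to 0.08 for MT-CO1.

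The labels do not say what a shared replicate number means. The differences between numbers within DMSO and within SB correlated at 0.53 over all 14909 tested rows and at 0.91 over the 93 tested members. With 2 pairs this is a hint from the data and does not establish a pairing.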

Other observations

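The other RNAs of mitochondrial DNA were low or at 0 in this table. MT-RNR2, the large ribosomal RNA of mitochondria, was at 59.2 and 54.6 FPKM with DMSO and at 71.7 and 61.2 FPKM with SB, and MT-RNR1, the small one, was at 7.99 and 7.98 FPKM with DMSO and at 10.6 and 11.1 FPKM with SB. Both were higher with SB within both replicate numbers, with log2 fold changes of 0.22 and 0.40 and limma adjusted p of 0.799 and 0.515. Unlike most mitochondrial mRNAs they did not separate the numbers in 1 direction, with differences of -0.17 and 0.03. All 22 mitochondrial transfer RNAs were listed at 0, which can be a failed estimate, so they are not called absent.

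Of 392 nuclear copies of mitochondrial genes in the table, 324 were listed at 0 in all libraries and 14 could be tested. MTCO1P12, which differs from MT-CO1 by 21 single-base changes or gaps over 1543 bases, was at 106 and 83 FPKM in the replicate 1 libraries of DMSO and SB and at 61.1 and 58.4 FPKM in those of replicate 2. MTCO2P12, which differs from MT-CO2 by 14 over 682 bases, was at 8.86 and 6.41 FPKM in replicate 1 and at 16.9 and 23.1 FPKM in replicate 2.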
